A study of Mus musculus with 6 samples.

Results

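The nuclear genes that build the mitochondrial ribosome, carry proteins into mitochondria and drive mitochondrial translation were examined in a map of N4-acetylcytidine (ac4C), a cytidine of RNA that carries an acetyl group. Members were chosen by gene symbol, as every gene named Mrpl, Mrps, Timm or Tomm followed by a digit, plus Tufm, Tsfm, Gfm1, Gfm2, Mtif2 and Mtif3. Earlier results of these data were known when they were chosen. A RefSeq gene table held 109 such protein-coding genes, and 19 of them had an entry in the authors' list of ac4C peak summits. These 19 genes held 26 of the 1876 listed summits, in a list that covered 1485 genes. By role, 9 listed genes encoded the large subunit, 3 the small subunit, 5 the import machinery and 2 the translation factors. The other 90 genes had no listed summit.

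In acRIP-seq, fragments of poly(A) RNA are pulled down with an antibody to ac4C and sequenced. There were 2 libraries each of ac4C pull-down, control IgG pull-down and input RNA without antibody. All 6 came from wild-type 32D cells, a mouse bone marrow line grown in interleukin 3 at 10 ng/mL, so nothing here comes from primary cells or from cells without Nat10, the enzyme that writes ac4C. The values formed 1 list called on the merged ac4C libraries, with no value for a single library, for IgG or for input. No replicate error, test or library depth can therefore be given. The list was also checked against markers of the line. Of 13 markers of myeloid progenitors 5 had a summit (38.5%), beside 6.71% of all protein-coding genes. They were Spi1 (fold enrichment 53.6), Fcer1g (44.6), Csf2rb2 (10.4), Csf2rb (9.02) and Prtn3 (4.27). Mpo, Elane, Cebpa and Kit were among those without one. Of 15 markers of other cells 2 had one (13.3%, 1.66% to 40.5%), Pf4 (125.3) and Hba-a1 (41.8). The 2 intervals overlapped. A summit does not measure expression, and the marker lists were chosen with earlier results of these data known, so they do not test the identity of the line. The highest fold of all these markers was thus on one of another cell type.

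Mitochondria keep a ribosome of their own, which translates the few membrane subunits of the respiratory chain and ATP synthase that mitochondrial DNA encodes. All of its proteins are encoded in the nucleus, made in the cytosol and imported. The translocase of the outer membrane (the Tomm proteins) receives them, and the translocases of the inner membrane together with small chaperones of the intermembrane space (the Timm proteins) pass them on.

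A listed summit was present for 19 of 109 genes, or 17.4% (exact Clopper-Pearson 95% interval 10.8% to 25.9%, counting error only), against 6.71% of 21900 protein-coding genes in the table. Expression was not measured, and the protein-coding background may hold many genes that these cells do not use. The absence of a summit is not evidence that an mRNA lacks ac4C, since low expression or the unknown filter of the list would leave it out as well. By role, 5 of 25 import genes were listed, 9 of 49 large subunit genes (18.4%), 3 of 29 small subunit genes (10.3%) and 2 of 6 translation factors. The intervals of all 4 roles overlapped, so they do not tell the roles apart, and no test was made. The 6.71% of all protein-coding genes lay inside the intervals of the small subunit (2.19% to 27.4%) and the translation factors (4.33% to 77.7%). It lay below those of the large subunit (8.76% to 32.0%) and import (6.83% to 40.7%), for import by a narrow margin on 5 of 25 genes. Members were chosen with earlier results of these data known, so these positions describe the counts and do not test any role. Coding summits alone were listed for 11 of the 109 genes, or 10.1%, against 3.45% of all protein-coding genes. Summits at or above the median fold of the list were found for 9, or 8.26%, against 3.65%.

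**Figure D1:**
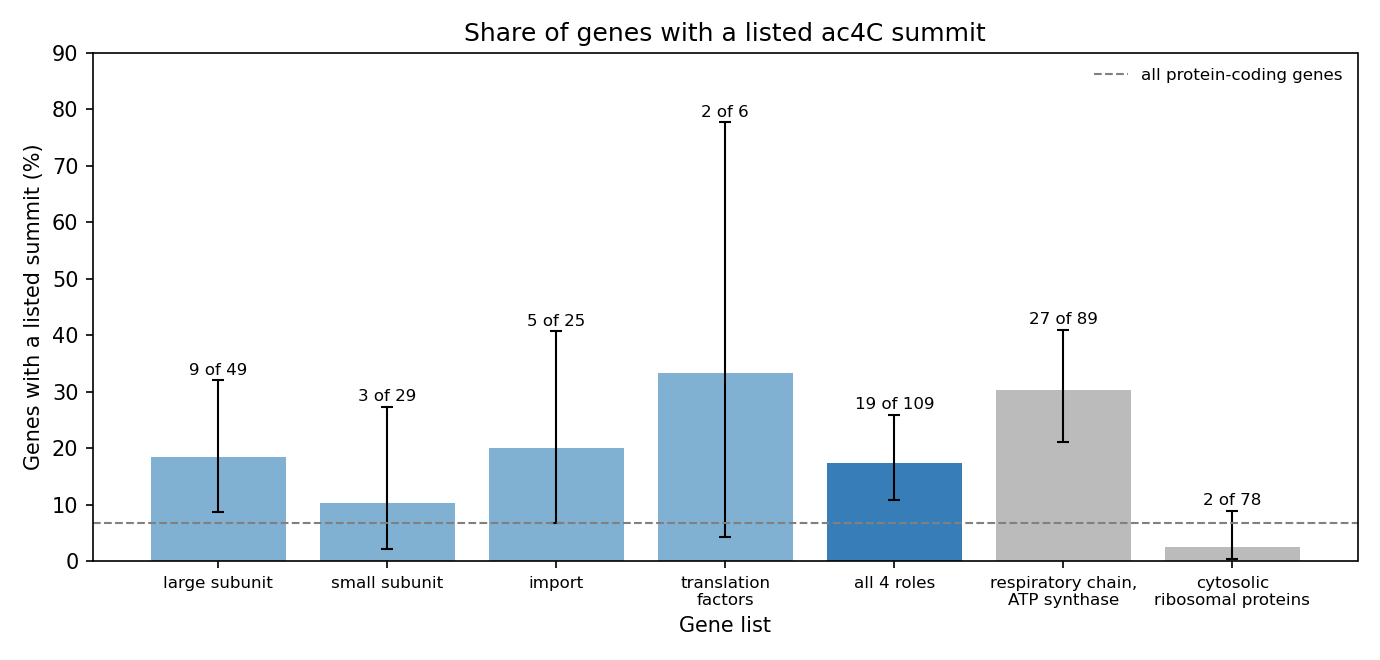
Share of genes with a listed ac4C summit, in percent, for each role, for all 4 roles, and for 2 other gene groups; bars give the share, error bars the exact 95% interval, numbers the genes with a summit of all genes, and the dashed line all protein-coding genes. The 4 roles together stand at 17.4%, between the respiratory chain and ATP synthase at 30.3% and the cytosolic ribosomal proteins at 2.56%.

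The height of a summit is given by the fold enrichment of the authors' peak caller. All folds in the list were whole multiples of 0.475, with a largest deviation of 0.00104 of a step. The peak caller adds 1 fragment to the pile-up and 1 to the background before it divides them, and this step then gives a background of 1.11 fragments at every summit. Each fold can thus be read as a pile-up of fragments. With the same background at every summit, the fold is not an enrichment over IgG or input of the same transcript. It was not corrected for how abundant each transcript was, so efficient pull-down and a plentiful mRNA cannot be told apart by height. The median over the family's 26 summits was a fold of 9.73, with quartiles of 5.81 and 17.3. Over the whole list the median was 11.4 and the quartiles were 7.12 and 19.9. Folds ran from 3.80 to 36.5, or from 7 to 76 fragments, and the −log10 q-values from 3.52 to 107.8. The p-values behind these q-values followed from the pile-up and the same constant background. They were therefore not corrected for abundance either. Set against the whole list, 8 summits lay below its lower quartile, 7 between that and the median, 6 between the median and the upper quartile, and 5 above. No member was among the 20 genes with the highest folds. The family held only 19 of the 1485 listed genes, so this absence says little about its heights.

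**Figure D2:**
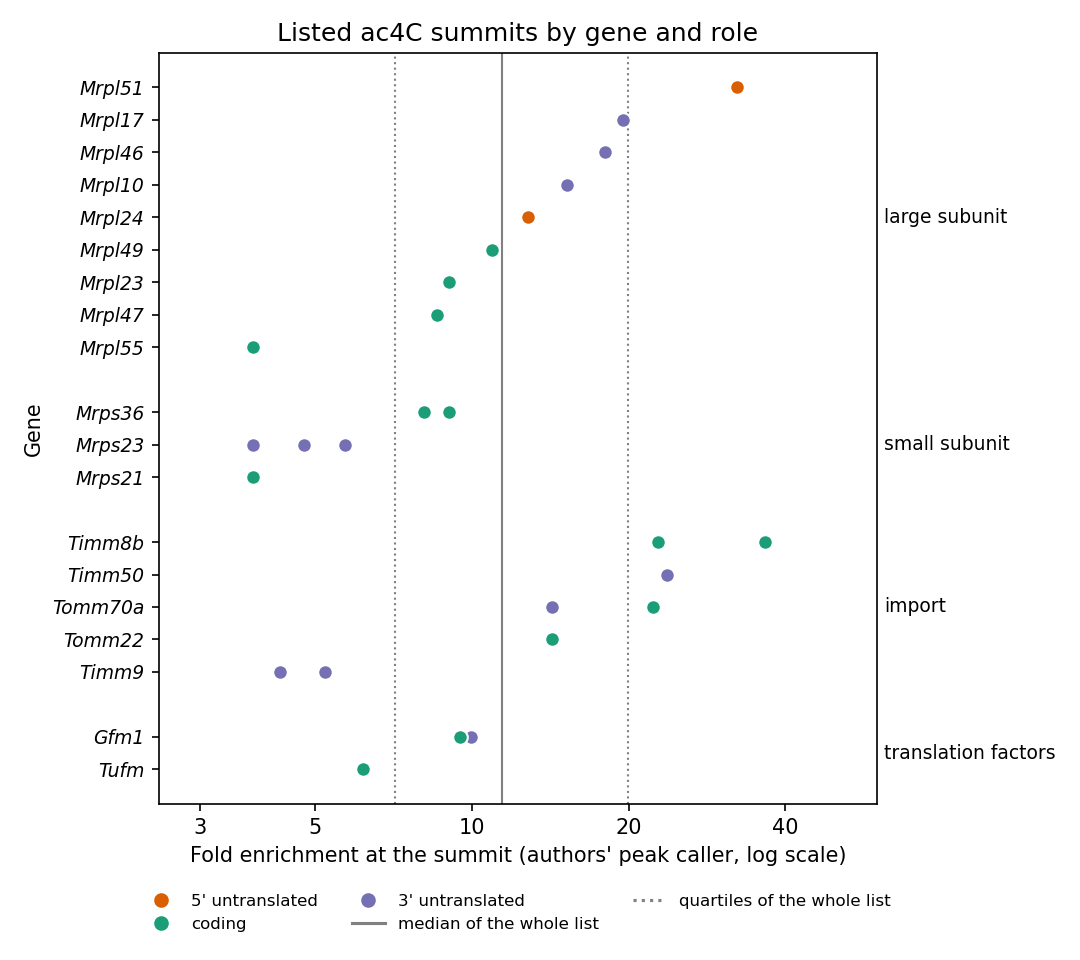
Fold enrichment at each of the 26 listed summits on a log scale, by gene within role; colours give the region of the mRNA, the solid line the median of the whole list (11.4) and the dotted lines its quartiles (7.12 and 19.9). Timm8b, Timm50, Tomm70a and Mrpl51 pass the upper quartile, while all small subunit and translation factor summits lie below the median.

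Large subunit genes had 1 summit each, and they spanned nearly the whole range of the family. The highest was on Mrpl51, a protein with no bacterial counterpart, with a fold of 32.3 at nt 126 of ENSMUST00000032485 in the 5' untranslated region. Its 67 fragments (exact Poisson 95% interval 51.9 to 85.1) placed it at rank 209 of 1876. Mrpl24, of a family conserved in bacteria, had the only other 5' untranslated summit, with a fold of 12.8 at nt 212.

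The next 3 large subunit genes all had their summit in the 3' untranslated region, with similar heights. Mrpl17, which has a bacterial counterpart, had a fold of 19.5 at nt 970. Mrpl46, specific to mitochondrial ribosomes, had 18.0 at nt 922, and Mrpl10, the base of the stalk that recruits translation factors, had 15.2 at nt 1276. The counting intervals of their pile-ups overlapped, at 40 (28.6 to 54.5), 37 (26.1 to 51.0) and 31 (21.1 to 44.0) fragments.

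Coding summits of the large subunit were lower than all 5 of its untranslated summits. Mrpl49, a mitochondrion-specific protein, had a fold of 10.9 at nt 94. Mrpl23, whose bacterial counterpart lies at the exit of the nascent chain, had 9.02 at nt 209. Mrpl47, related to bacterial L29, had 8.54 at nt 585. Mrpl55, which has no bacterial counterpart, stood at the bottom with 3.80 at nt 568, a pile-up of 7 fragments (2.81 to 14.4).

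Small subunit genes had a lower median highest fold than large subunit genes, 5.70 over 3 genes against 12.8 over 9. All 6 of their summits fell below the median of the list, and the highest of the 3 genes was Mrps36 with 9.02. Mrps36 was named as a ribosomal protein but is now known as a part of the 2-oxoglutarate dehydrogenase complex of the citric acid cycle, so it is a member by symbol only. Its summits lay at nt 130 of one transcript and nt 111 of another, with folds of 9.02 and 8.07, or 18 and 16 fragments. Without it, the highest small subunit fold was 5.70.

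Mrps23, a mitochondrion-specific small subunit protein, had the most listed entries in the family. It had 3, each on a different transcript and all in the 3' untranslated region, with folds of 5.70 at nt 722, 4.75 at nt 451 and 3.80 at nt 1096. Their pile-ups of 11, 9 and 7 fragments had overlapping counting intervals. Mrps21, the counterpart of bacterial S21, had a coding summit of 3.80 at nt 147. Over the 3 genes of this role by symbol, pile-ups thus ran from 7 to 18 fragments, and without Mrps36 from 7 to 11. Ribosomal genes under other symbols are not counted here.

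Import genes held 4 of the 5 highest summits of the family, on Timm8b, Timm50 and Tomm70a. Their median highest fold was 22.3 over 5 genes, against 12.8 over 9 large subunit genes and 5.70 over 3 small subunit genes. The highest fold of the family was on Timm8b, a small chaperone that escorts hydrophobic precursors through the intermembrane space. ENSMUST00000044051 carried 2 coding summits of 1 peak, with folds of 36.5 at nt 59 and 22.8 at nt 278. The pile-ups were 76 fragments (59.9 to 95.1) at nt 59 and 47 (34.5 to 62.5) at nt 278, and these intervals overlapped.

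Timm9, another small chaperone of the same compartment, was the lowest import gene. Its 3' untranslated summits had folds of 5.22 at nt 632 and 4.27 at nt 2409 of different transcripts, from 10 and 8 fragments. Timm50, the receptor that hands precursors to the inner membrane translocase, had a fold of 23.7 at nt 1341 in the 3' untranslated region. No counting interval of Timm9 reached that of Timm50, at 49 fragments (36.3 to 64.8). The other 12 of 15 Timm genes were unlisted.

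Both receptors of the outer membrane translocase with a summit were above the median of the list. Tomm70a, the receptor of carrier precursors, had a coding summit of 22.3 at nt 869 and a 3' untranslated summit of 14.2 at nt 3754 of the same transcript. Tomm22, the central receptor, had a coding summit of 14.2 at nt 285. The channel gene Tomm40 and its relative Tomm40l had no listed summit. Neither did the receptor gene Tomm20 with its relative Tomm20l, the small subunits Tomm5, Tomm6 and Tomm7, or Tomm34, whose protein is a cytosolic cochaperone.

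The elongation factors were listed at modest heights. Gfm1, which moves the ribosome along the mRNA, had summits of nearly equal fold, 9.97 at nt 2466 in the 3' untranslated region and 9.49 at nt 371 in coding sequence. They came from 20 and 19 fragments and lay 2095 nt apart on ENSMUST00000077271. Tufm, which delivers aminoacyl-tRNA, had a coding summit of 6.17 at nt 988. Tsfm, which recharges Tufm, the ribosome recycling factor Gfm2 and the initiation factors Mtif2 and Mtif3 had no listed summit.

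The list left out summits on several of these mRNAs. In its numbering, transcripts ran in order of peak number, and on every transcript with several entries the positions rose with it, so a number missing between entries of 1 transcript belongs to that transcript. On Gfm1, 2 numbered peaks between its summits were not listed, and on Tomm70a 1 was not. Peaks with several summits carry letters, and these imply at least 3 further summits on Tomm70a and 1 each on Mrpl51, Mrpl17 and Mrps36. In all, 5 of the 19 genes had at least 1 numbered peak or lettered summit that was not listed. That count sees only missing letters and numbers between entries of 1 transcript, so it is a lower bound. Peak numbers ran to at least 30759, on Timm9, while the list held 1876 summits, so most numbered peaks are absent from it. Genes without an entry may thus have had numbered peaks too. Conversely, 3 genes, Mrps36, Mrps23 and Timm9, had their entries on different transcripts, where 1 site may be entered more than once. The number of entries of a gene is therefore not its number of sites.

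The summits were next placed along the mRNA. Coding sequence held 13 of 26, or 50.0% (29.9% to 70.1%), the 3' untranslated region 11, or 42.3% (23.4% to 63.1%), and the 5' untranslated region 2, or 7.69% (0.946% to 25.1%). Over the whole list, which includes the family, these shares were 48.0%, 44.9% and 7.09%, inside the family's intervals. Those intervals count entries, and some entries may be 1 site on different transcripts. With only the highest summit of each gene, the family shares were 52.6%, 36.8% and 10.5%. Only Gfm1 and Tomm70a had listed summits in more than 1 region. No more than 300 nt from the start of the transcript were 8 of the 13 coding summits, on Timm8b, Mrpl49, Mrps36, Mrps21, Mrpl23 and Tomm22. That share of 61.5% counts 2 summits each of Timm8b and Mrps36, those of Mrps36 on different transcripts. It stood beside 23% of coding summits in the whole list and 48.3% of those on respiratory chain and ATP synthase genes. The median position of coding summits was nt 278 in the family, nt 308 on respiratory chain genes and nt 730.5 in the whole list. In the 3' untranslated region it was nt 1096 in the family against nt 2236 in the whole list. Transcript lengths were not available, and their part in these positions was not tested.

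**Figure D3:**
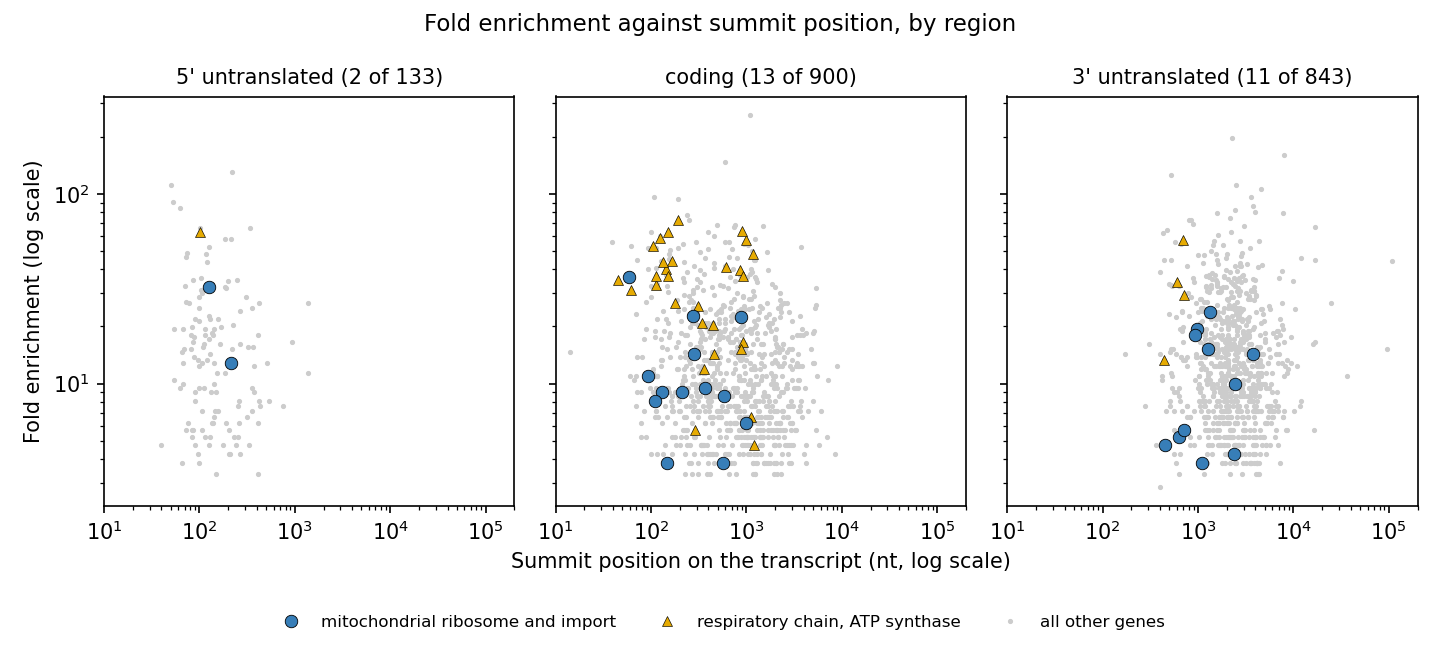
Fold enrichment against the position of the summit on its transcript in nt, both on log scales, by region of the mRNA; blue circles are mitochondrial ribosome and import genes, yellow triangles respiratory chain and ATP synthase genes and grey points all other genes. Family coding summits share the short distances of the respiratory chain but lie lower, with a median fold of 9.02 against 37.0.

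The respiratory chain and ATP synthase are the other large nuclear programme of mitochondria, and their subunits assemble with the products of the mitochondrial ribosome. The ribosome and import family was listed for 17.4% of its genes, against 27 of 89, or 30.3% (21.0% to 41.0%), for respiratory chain genes, and the intervals overlapped. Heights lay further apart. The median highest fold per gene was 10.9 (quartiles 7.36 and 18.7) over the 19 family genes and 35.1 (15.9 and 48.7) over the 27 respiratory chain genes, and 12.3 over all 1469 listed protein-coding genes. At or above the upper quartile of the list were 4 of 19 family genes, Timm8b, Mrpl51, Timm50 and Tomm70a, against 19 of 27 respiratory chain genes and 399 of 1469 listed protein-coding genes. Coding sequence held 50.0% of family summits and 85.3% (29 of 34) of respiratory chain summits. These are descriptions without a test, and abundance of the mRNAs, which the fold does not remove, was not measured. Cytosolic ribosomal proteins, the counterpart outside mitochondria, were listed for 2 of 78 genes, or 2.56% (0.312% to 8.96%). That interval holds the 6.71% of all protein-coding genes. The folds of these 2 genes were 8.54 and 131.0.

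Other genes of the same pathways were taken from lists of ribosomal, import, translation and RNA genes with other symbols. Ribosomal proteins outside the naming pattern had 2 of 5 genes listed, Gadd45gip1 with a fold of 19.5 at nt 1152 and Chchd1 with 16.6 at nt 191, both coding. Import and folding genes had 4 of 29, or 13.8% (3.89% to 31.7%). That interval and the one of the 2 of 5 ribosomal genes (5.27% to 85.3%) both hold the 6.71% of all protein-coding genes. Grpel1, the nucleotide exchange factor of the import motor, had 36.1 in the 3' untranslated region. Oxa1l, the insertase that receives chains from the mitochondrial ribosome, had 31.8 in coding sequence. The chaperonin gene Hspd1 had coding summits of 19.0, 18.0 and 9.97, and the outer membrane channel gene Vdac2 had 8.54.

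Among genes that assist mitochondrial translation, assembly, release and maturation factors had 2 of 30, or 6.67%, beside 6.71% of all protein-coding genes, with Rpusd4, a pseudouridine synthase, at 10.9 and Mtrf1l, a release factor, at 8.54. Mitochondrial tRNA synthetases and related genes had 3 of 22, or 13.6%, with an interval of 2.9% to 34.9% that holds the same 6.71%. Kars, whose gene serves both cytosol and mitochondria, had coding summits of 27.1 at nt 89 and 14.2 at nt 1351, and the purely mitochondrial Iars2 and Nars2 had 7.12 and 5.70. Genes of mitochondrial transcription and RNA processing had 0 of 32, with an interval of 0% to 10.9% that holds the 6.71% of all protein-coding genes.

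Some members share their locus with other genes. In the gene table, 6 of the 19 overlapped another protein-coding gene, namely Gfm1 with Lxn, Mrpl24 with Rrnad1, Mrpl49 with Syvn1, Mrps23 with Cuedc1, Timm8b with Nkapd1 and Timm9 with Tomm20l. None of these partners had a listed summit. Mrpl46 lay within 1 kb of Mrps11, Timm8b of the complex II gene Sdhd and Mrpl47 of the complex I gene Ndufb5, and none of these neighbours was listed either. Tufm lay within 1 kb of Atxn2l, the only neighbour at that distance with a listed summit. Mrps36 has 3 annotated pseudogenes and Mrpl23 has 1, so reads of these genes could be split between copies.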

How the data were processed

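The authors' deposited list, from acRIP-seq of 32D cells, gives for each summit its transcript and gene in Ensembl, a position in nt, a region and 3 scores. Per the file headers, 1 is a fold enrichment (a ratio) and the others are p- and q-values of the peak caller as −log10. Cutadapt, Bowtie2, MACS2 and build GRCm39 are named per the submitters' processing notes; versions, parameters, the control library and the filter of the list are not given in the sources used here. Entry names read as 1 call on merged ac4C libraries.

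Every member entry was kept, with the authors' regions. The step of the folds was found by grid search, tested on simulated data, and each pile-up is the fold over the step, minus 1. The Poisson tail of that pile-up over the constant background gave the listed −log10 p-values of the 26 summits to within 0.000275%. Symbols were matched to a RefSeq table of GRCm38.p6 (1475 of 1485 matched), used for names, gene types and neighbours; 3 entries of the fixed gene lists were missing there and were left out. Another build's coordinates cannot be joined to the list, so positions are on transcripts. No sequence is shown because no transcript sequence was used here. Shares have exact Clopper-Pearson and pile-ups exact Poisson 95% intervals, and medians those of order statistics, which cover counting error only, and PCR copies are not independent. Every listed member was named, and of the other lists at most the 5 highest genes. The members and lists were chosen with earlier results of these data known. Python 3.11.15, pandas 2.3.3 and scipy 1.17.1 were used.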

Additional observations from a re-analysis of the deposited data

How the results depend on the processing

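No paired analysis was possible because the list was called on merged libraries. For the same reason no replicate could be left out or used as a block. Counting summits within 100 nt on 1 transcript once changed nothing by construction, since no family transcript has such a pair; it does not merge the Mrps36 summits, which lie on different transcripts. Of the other 14 alternative values, 12 lay within the 95% interval of the value they replace and 2 did not; intervals of medians are from order statistics. The share of family genes with a summit was 8.26% (9 of 109) with only summits at or above the median fold, against 3.65% of all protein-coding genes. It was 10.1% (11 of 109) with only coding summits, against 3.45%. Both count fewer summits by construction. With ribosomal and import genes under other symbols added, the share was 17.5% (25 of 143). The median highest fold, 10.9 (6.17 to 19.5), was 9.02 with coding summits and 19.5, the upper end of its interval, with summits at or above the median fold, a selection on the fold itself. The coding share of summits ran from 36.4% to 52.6% and the 3' untranslated share from 36.8% to 45.5%, and their order turned with only summits at or above the median fold, where 36.4% were coding and 45.5% in the 3' untranslated region. Library depth is unknown, and the lowest summits rest on 7 fragments.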

Other observations

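The mRNAs that the mitochondrial ribosome translates were looked up in the same list. Of those encoded in mitochondrial DNA, mt-Nd4, a complex I subunit, alone had an entry, a coding summit at nt 1090 with a fold of 260.6 from 548 fragments. Its letter e shows that the peak held at least 4 further summits that were not listed. The tallest summit on a nuclear gene of the translating machinery, Mrpl51, had 67 fragments. Abundance of these mRNAs, which the fold does not remove, was not measured, and its part in this difference was not tested.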
